A study of Mus musculus with 12 samples.

Results

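The postsynaptic density is the protein sheet under the membrane of excitatory synapses. Here, N6-methyladenosine (m6A) peaks were described at 5 genes whose products build or work in it: Camk2a, Shank1, Shank3, Dlg4 and Ddn. The members were the deposited peaks that overlapped 1 genomic window per gene in build mm9: chromosome 18 from 61085000 to 61148500 for Camk2a, chromosome 7 from 51565300 to 51614500 for Shank1, chromosome 15 from 89329700 to 89391000 for Shank3, chromosome 11 from 69830500 to 69859400 for Dlg4, and chromosome 15 from 98633000 to 98638500 for Ddn. In all, 106 of 148097 peaks met this rule, and they merged into 63 of 70674 regions, a region being a set of peaks of any list that share at least 1 bp.

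The peaks came from the hippocampus of wild-type male C57BL/6 mice aged 2 or 6 weeks, with 2 immunoprecipitated (IP) libraries per age, numbered as biological replicates without naming the animals. Titles of the 2-week IP libraries carry the word replicate, while those of the 6-week ones carry only a number after m6A-IP. No treatment was given to either age in the labels. An antibody to the methyl mark enriches methylated pieces of mRNA in m6A-IP, and a peak is a short stretch where the enriched library has an excess of tags over a control library. The control of each list is not named in the sources used here; if it was the input, its tags follow the level of the RNA. The other 8 of the 12 samples, which include the Fto knockout, were not analysed here. P-values measure the spread between these libraries, which may be technical in part.

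CaMKII is a kinase that calcium entering through NMDA receptors switches on. PSD-95, the Dlg4 product, holds receptors at the membrane, and Shank proteins form the layer below it that links to the actin skeleton. The mRNAs of several of these genes, Camk2a, Shank1 and Ddn among them, are known to travel into dendrites, where they can be translated near synapses. In mRNAs generally, m6A lies often around the stop codon and in the 3′ part of the transcript, and it can affect the stability, transport and translation of the RNA.

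If the deposited signal was scaled to 10 M (10000000) tags, the IP depth was 23.4 and 23.0 M for the 2-week libraries, 16.1 and 16.5 M for the 6-week ones, and that of the controls 29.3, 16.8, 15.8 and 11.7 M in this order. The deeper IP libraries were those of 2 weeks, so depth and age cannot be told apart by design. Values below are tags per 10 M of the library, unless given as whole tags. A library without a call at a region gives no tag number there, so a missing call does not mean that the mark was absent. Each deposited peak was at least 3-fold over its control. The fold over control of a peak is the authors' own value and is used here only to describe it. The tissue is bulk, so fewer cells of a type and less RNA per cell cannot be told apart. No annotation of build mm9 was used here, so exons, introns and untranslated regions are not assigned and positions are given as coordinates or as distances within the window. Peaks carried no strand information. In the GRCm38.p6 gene table from RefSeq, which was used for names and neighbours only, the span of Shank1 overlaps another coding gene, 1700008O03Rik, and those of Camk2a, Shank3 and Ddn overlap non-coding genes, so tags there may belong in part to those.

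By IP tags, Camk2a, Ddn and Shank1 carried some of the strongest peaks of each list, while Shank3 and Dlg4 carried few. The strongest Ddn peak ranked 5 and 17 by IP tags in the lists of 2-week replicates 1 and 2, and 4 and 19 in those of 6-week replicates 1 and 2. The strongest Camk2a peak ranked 8 and 9 at 2 weeks and 18 and 7 at 6 weeks. For Shank1 the ranks were 26 and 53 at 2 weeks and 27 and 101 at 6 weeks. These 3 genes therefore stood within the first 101 peaks of lists of 33239 to 39259 peaks in every library. By fold over control they stood otherwise. The median fold of the lists was 5.97 and 7.33 at 2 weeks and 6.2 and 6.38 at 6 weeks. In the same order, the strongest Camk2a peak had 5.63, 5.16, 3.11 and 4.53, below the median of each list. That of Ddn had 6.02, 4.66, 9.21 and 3.57, above it in replicate 1 of each age and below it in replicate 2. That of Shank1 had 7.83, 10.8, 17.4 and 7.37, above it in each list. The strongest Shank3 peak ranked 255 in 2-week replicate 1 and 837 and 304 at 6 weeks, and 2-week replicate 2 had no peak in that window. Dlg4 ranked 233 in 2-week replicate 1 and no higher than 7941 in the other 3 libraries.

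**Figure D1:**
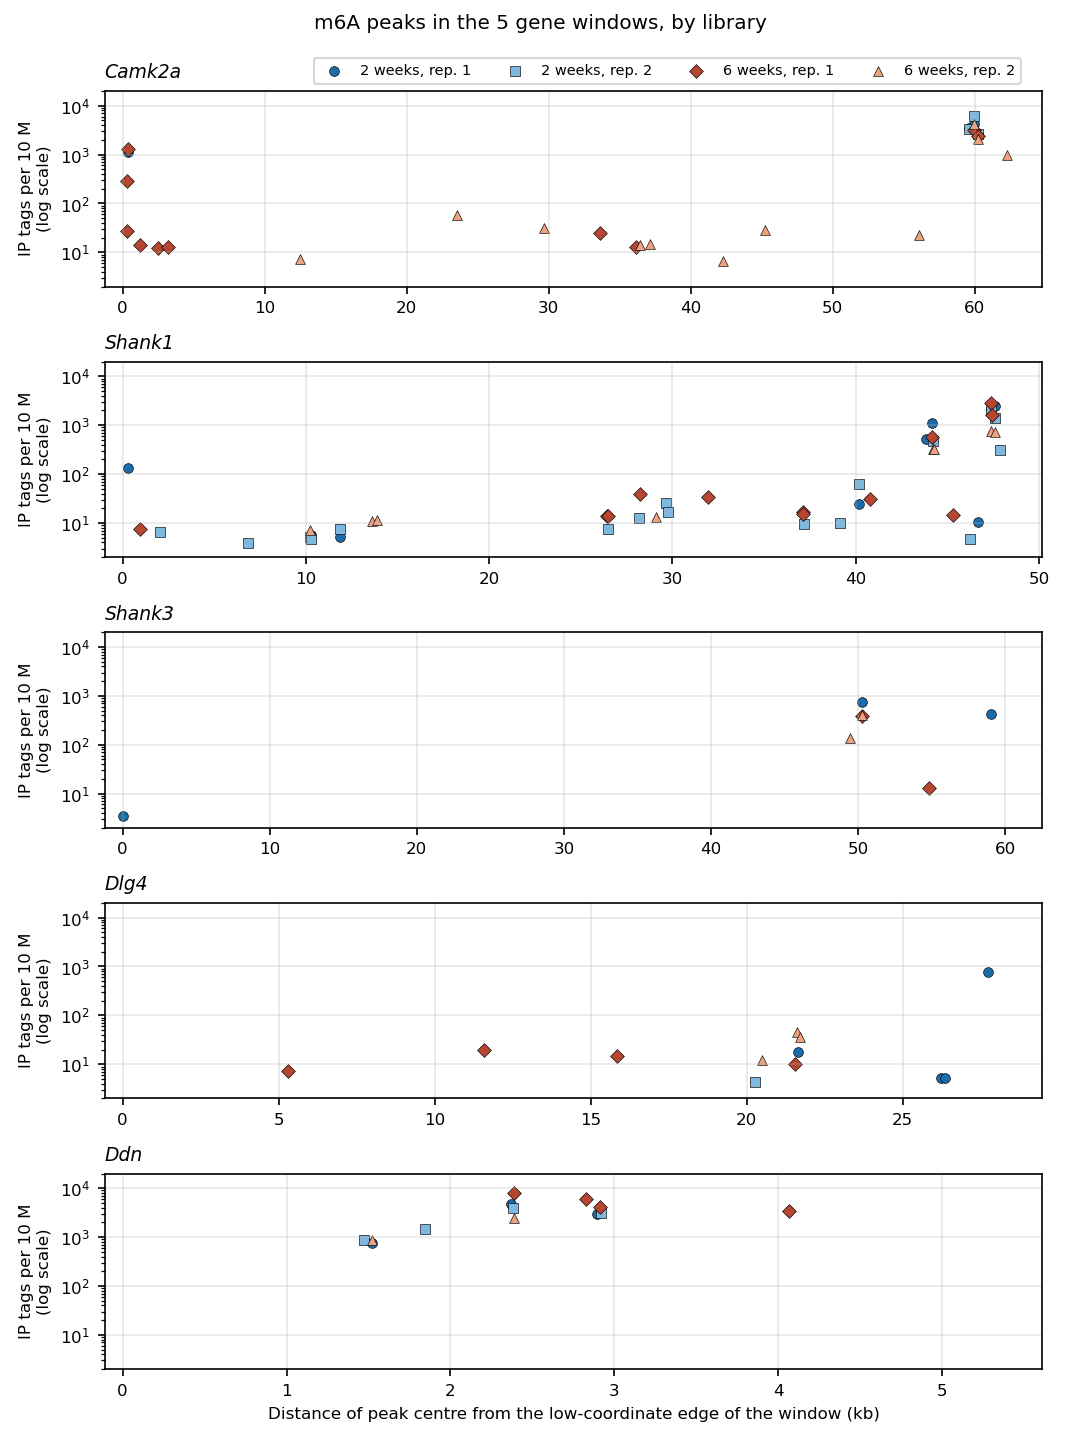
Every peak of the 5 windows, with the distance of its centre from the low-coordinate edge of the window in kb on the x axis and its IP tags per 10 M on a logarithmic y axis; colours and symbols mark the 4 libraries. Strong Camk2a and Shank1 peaks sit near the high-coordinate edge in all 4 libraries, and the weak Camk2a peaks in the interior of the window all belong to the 6-week libraries.

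The Camk2a window held 4 and 3 peaks at 2 weeks and 10 and 11 at 6 weeks. Of the 10 peaks of 6-week replicate 1, 3 were overlapping calls of 1 region at the low-coordinate edge. Both 6-week lists thus had more peaks here than both 2-week lists, which held for 13.8% of the 4836 windows and loci with at least 10 peaks (a locus being regions less than 10000 bp apart). With 2 libraries against 2 there are only 6 arrangements, so an exact two-sided permutation test of such a value cannot fall below the threshold of 0.05. Most of the added peaks were weak: 14 regions of the window were called in a single library, all of them at 6 weeks, and 13 of their 14 peaks held fewer than 100 IP tags. The share of single-library regions in the window was 77.8%, against 58.6% of all regions. Of the 14, replicate 1 gave 5 and replicate 2 gave 9. The share of regions called in 1 library at 6 weeks was 31.2% over the whole series.

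Most of the Camk2a signal stood in a cluster of 3 regions about 60 kb into the window, within 4 kb of its high-coordinate edge. Cutting the window into 3 equal parts, the one at the high-coordinate edge held 89.9% and 100% of its IP tags in peaks at 2 weeks and 76.8% and 98.2% at 6 weeks. The middle one of the cluster, called the central region here, ran from 61144877 to 61145009 on chromosome 18 and had 4138 and 6268 IP tags per 10 M at 2 weeks, against 3215 and 4127 at 6 weeks. Both 6-week values lay below both 2-week values, by a narrow margin, as they did in 41.7% of the 10203 regions called in all 4 libraries. Its control tags were 735 and 1216 per 10 M at 2 weeks and 1034 and 912 at 6 weeks, so the ages overlapped. The fold over control was 5.63 and 5.16 at 2 weeks and 3.11 and 4.53 at 6 weeks, with both 6-week values lower, as in 9.98% of those regions. Mean IP was 5203 ± 1506 (SD, n = 2) at 2 weeks and 3671 ± 644.5 at 6 weeks, and mean IP over control 5.39 ± 0.334 and 3.82 ± 1.00.

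The next region, from 61145160 to 61145268, gave a more even picture in the IP and a different one in the ratio. It had 2630 and 2604 IP tags per 10 M at 2 weeks, against 2378 and 2120 at 6 weeks. The 2-week libraries agreed closely. Both 6-week libraries were lower, as in 41.7% of the 10203 regions called in all 4 libraries. Its control tags were 640 and 557 per 10 M at 2 weeks and 567 and 271 at 6 weeks. The fold over control was 4.11 and 4.68 at 2 weeks and 4.19 and 7.83 at 6 weeks, with the high value in the library whose control was lowest.

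Another region of the cluster, from 61144547 to 61144671, was called at 2 weeks only, that is, in both 2-week libraries and in neither 6-week library. It held 8009 and 7594 whole IP tags (3417 and 3307 per 10 M) at 4.43-fold and 4.62-fold. The nearest 6-week peaks lay 238 and 206 bp away, in the central region of the same cluster. The windows held 3 such regions among 63, or 4.76%, against 6.41% of all regions, and none called at 6 weeks only, against 1.92%. The other 2 of the 3 were weak Shank1 regions, described with that gene. Calls in all 4 libraries were made at 5 of the 63, against 14.4% of all regions.

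At the low-coordinate edge of the Camk2a window, the region from 61085268 to 61085425 was called in 1 library of each age, replicate 1 both times. Its strongest peak had 1145 IP tags per 10 M at 2 weeks, against 1290 at 6 weeks, at 3.39-fold and 3.41-fold. Both folds lay close to the 3-fold minimum, and the nearest peaks of the replicate 2 lists were 8083 bp away at 2 weeks and 8569 bp at 6 weeks. In 6-week replicate 2 alone, a peak from 61147209 to 61147309 had 981 IP tags per 10 M at 5.74-fold.

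Ddn encodes dendrin, a protein of dendrites and spines, and its window is short, at 5.5 kb. It held 3 and 4 peaks at 2 weeks and 4 and 2 at 6 weeks, all of them over 10 times their list's median in IP tags. The only Ddn region called in all 4 libraries, from 98635319 to 98635438 on chromosome 15, had 4691 and 3983 IP tags per 10 M at 2 weeks, against 7976 and 2426 at 6 weeks. The 6-week replicates stood apart from each other by more than the ages did, one above and one below both 2-week libraries. Mean IP was 4337 ± 500.5 (SD, n = 2) at 2 weeks and 5201 ± 3924 at 6 weeks. Control tags there were close together, with 779 and 855 per 10 M at 2 weeks and 866 and 680 at 6 weeks. The fold over control was therefore spread like the IP, with 6.02 and 4.66 at 2 weeks and 9.21 and 3.57 at 6 weeks.

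A neighbouring Ddn region, from 98635778 to 98635967, was called in 3 libraries. It had 3006 and 3095 IP tags per 10 M at 2 weeks, against 5943 in the stronger of 2 overlapping peaks of 6-week replicate 1. Control tags were 768 and 943 per 10 M at 2 weeks and 1955 in that 6-week library, and the folds were 3.92, 3.28 and 3.04. The high IP value of the 6-week library stood beside a high control value, and its fold was the lowest of the 3. The region from 98634423 to 98634570 was also called in 3 libraries, with 756 and 876 IP tags per 10 M at 2 weeks, against 881 in 6-week replicate 2. Its folds were 3.92, 3.05 and 3.48. The remaining Ddn regions were single-library calls, in 2-week replicate 2 (1433 IP tags per 10 M, 3.12-fold) and in 6-week replicate 1 (3495, 3.13-fold).

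**Figure D2:**
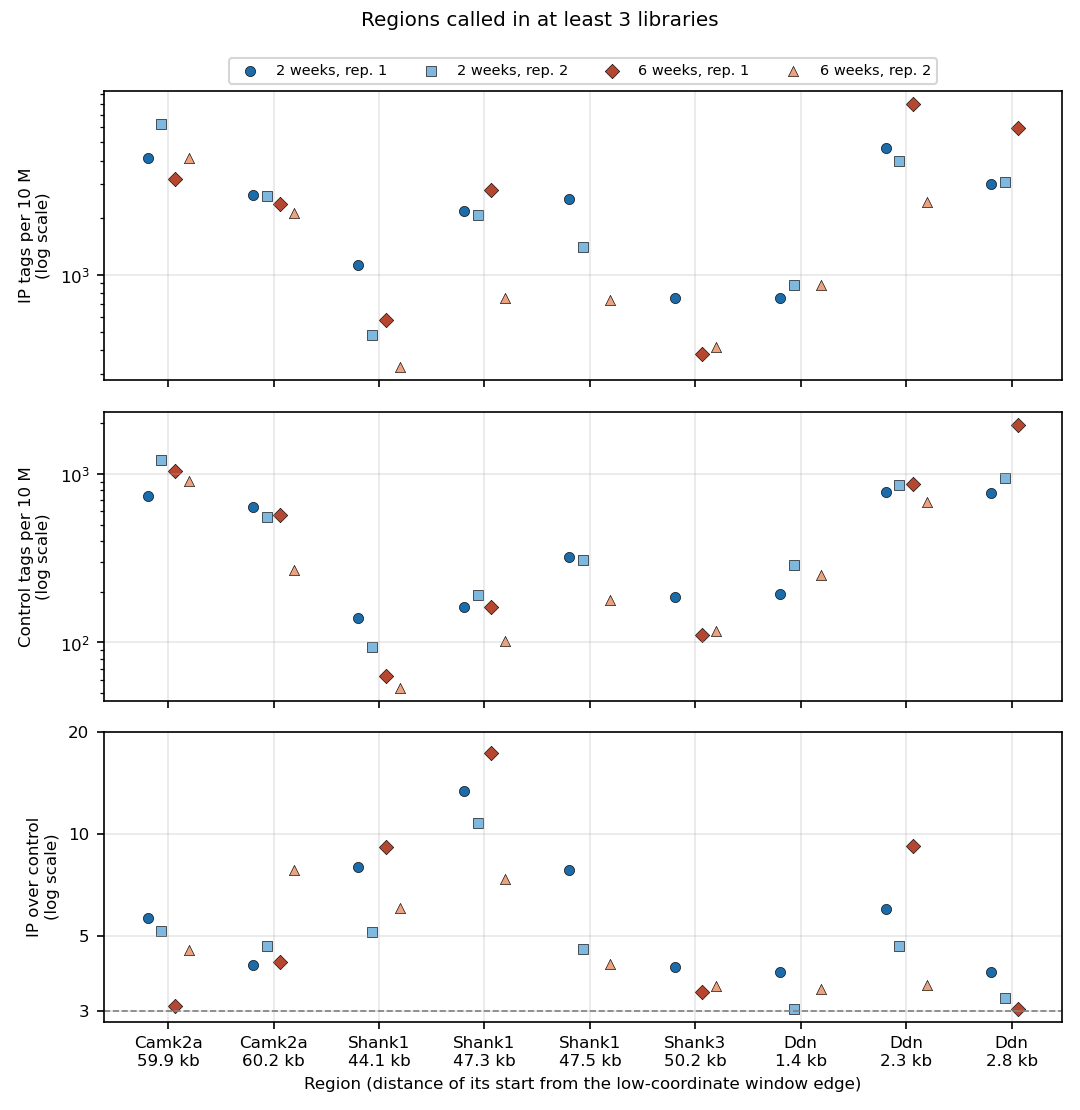
The 9 regions of the windows called in at least 3 libraries with over 400 IP tags in at least 1 of them, named by gene and by distance from the low-coordinate window edge; panels give IP tags per 10 M, control tags per 10 M and IP over control on logarithmic axes, 1 symbol per library, from the strongest peak of the region in each. The dashed line is the 3-fold minimum, and the Shank1 region at 47.3 kb is the highest of the 9 in IP over control in 3 of the 4 libraries.

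Shank1, a scaffold protein that binds the receptor-linked layer to actin regulators, had the most peaks of the 5 windows over the 4 lists together (46, against 28 for Camk2a), with 9 and 17 at 2 weeks and 12 and 8 at 6 weeks. In 6-week replicate 2, Camk2a had more, with 11. The part at the high-coordinate edge, again 1 of 3 equal parts, held 97.8% and 98.0% of its IP tags in peaks at 2 weeks and 97.9% and 98.0% at 6 weeks. The region from 51612623 to 51612810 on chromosome 7 had 2177 and 2074 IP tags per 10 M at 2 weeks, against 2818 and 749 at 6 weeks. As at Ddn, 6-week replicate 1 was above both 2-week libraries and replicate 2 below both. Its control tags were below those of the Camk2a cluster in each library, with 162 and 192 per 10 M at 2 weeks and 162 and 102 at 6 weeks. The fold over control was 13.4 and 10.8 at 2 weeks and 17.4 and 7.37 at 6 weeks.

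Among peaks with at least 100 control tags per 10 M, of which the lists held 449, 583, 293 and 275 (2-week replicates 1 and 2, then 6-week replicates 1 and 2), the median fold was 4.43, 4.34, 4.68 and 4.06. The Shank1 peak was among the top 0.445%, 2.40%, 2.73% and 4.73% of these by fold. The 40 member peaks in that class had medians of 4.11, 4.62, 3.65 and 4.33, on both sides of those of the whole class. Of the members, 5 of 13, 3 of 9, 6 of 10 and 3 of 8 were under 4-fold, and of all such peaks 39.0%, 41.7%, 35.8% and 48.0%.

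Next to it, the Shank1 region from 51612827 to 51612930 had 2511 and 1406 IP tags per 10 M at 2 weeks, against 734 in 6-week replicate 2. No peak was called there in 6-week replicate 1, where the nearest peak ended 17 bp before it, so its value in that library is not known. About 3 kb toward the low-coordinate edge, the region from 51609435 to 51609633 was called in all 4 libraries. Its strongest peak had 1123 and 481 IP tags per 10 M at 2 weeks, against 579 and 324 at 6 weeks. The 2-week replicates differed more from each other than the age means did. Control tags there were 141 and 93.9 per 10 M at 2 weeks and 63.3 and 53.8 at 6 weeks, both 6-week values being lower, as in 46.6% of the regions called in all 4 libraries. Folds over control were 7.99 and 5.12 at 2 weeks and 9.13 and 6.02 at 6 weeks.

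Most other Shank1 peaks were weak. Of the 26 regions of the window, 17 were called in 1 library, 10 of these at 2 weeks and 7 at 6 weeks. The 17 were 65.4% of the window, against 58.6% of all regions. Those of 2 weeks were 38.5%, against 27.5% of all regions, and those of 6 weeks 26.9%, against 31.2%. The 7 of 6 weeks held 12 to 55 IP tags each, and 7 of the 10 of 2 weeks also held fewer than 100. The strongest of the 10, from 51609061 to 51609161 in 2-week replicate 1, had 1232 IP tags at 5.35-fold. The 2 regions called at 2 weeks only were from 51577089 to 51577233, with 12 and 17 whole IP tags, and from 51605437 to 51605548, with 57 and 141. A 6-week peak lay 479 bp from the second of these. In 6 of the 46 Shank1 peaks the control held no tag at all, for which the floor of 3 tags is 1.78 to 2.56 per 10 M in the 3 libraries concerned. Such peaks had between 9 and 19 IP tags.

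**Figure D3:**
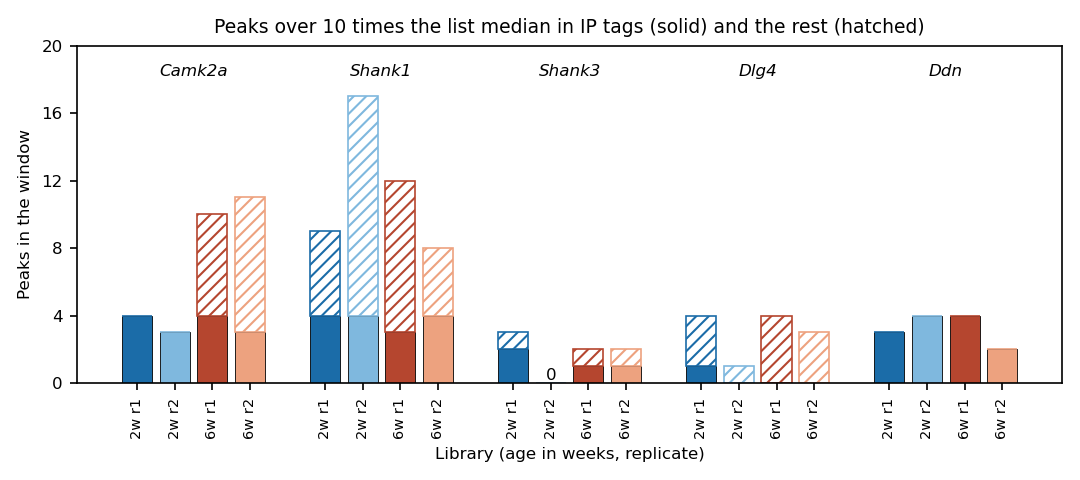
Number of peaks in each window by library, where solid bars are peaks with over 10 times the median IP tags of their list and hatched bars are the others. Camk2a had hatched peaks in both 6-week lists and 0 in both 2-week lists, while its solid bars were 4 and 3 at 2 weeks and 4 and 3 at 6 weeks. These solid peaks were not all of the same regions. The region from 61144547 was called at 2 weeks only, and the peak from 61147209 in 6-week replicate 2 alone. In 6-week replicate 1, overlapping peaks of the region from 61085268 were counted separately.

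Shank3, a paralogue of Shank1 in the same scaffold, had 3 peaks in 2-week replicate 1, none in 2-week replicate 2, and 2 in each 6-week library. The windows of Shank3 and Shank1 are shorter than the genes' RefSeq spans in GRCm38.p6, so peaks of these genes near the edges may be missed. At the low-coordinate edge of the Shank3 window, 2-week replicate 1 had a peak of 8 IP tags, and the nearest peaks of 2-week replicate 2 and 6-week replicate 1 lay 3687 and 1803 bp from it, outside the window. Its main region, from 89379895 to 89379995 on chromosome 15, was called at the same printed position in 3 libraries. It had 748 IP tags per 10 M in 2-week replicate 1 and 378 and 414 at 6 weeks. Control tags were 186 per 10 M in 2-week replicate 1 and 111 and 117 at 6 weeks, and the folds were 4.03, 3.41 and 3.54. The 6-week folds lay near the 3-fold minimum, and that of 2-week replicate 1 was higher. The value of 2-week replicate 2, whose nearest peak was 42217 bp away, is not known. A peak from 89388655 to 89388755, called in 2-week replicate 1 only, had 418 IP tags per 10 M at 3.98-fold.

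Dlg4 had 4 and 1 peaks at 2 weeks and 4 and 3 at 6 weeks, and no region of its window was called in all 4 libraries. Its strongest peak, from 69858195 to 69858295 on chromosome 11, had 1815 whole IP tags in 2-week replicate 1 (774 per 10 M, 3.26-fold) and was called in no other library. The control of that library held 237 tags per 10 M there. The other Dlg4 peaks were weak, with 10 to 75 IP tags. The most shared region, from 69851997 to 69852275, was called in 3 libraries, with 41 tags in 2-week replicate 1, 16 in 6-week replicate 1 and 75 in the stronger of 2 peaks of 6-week replicate 2. Outside the part at its high-coordinate edge, again 1 of 3, peaks of this window came from 6-week replicate 1 alone, with 12, 32 and 24 tags.

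The ages were compared with edgeR's quasi-likelihood test at regions with exactly 1 peak in each list, fitted on all 4577 such regions. Only 3 member regions qualified, 2 of Camk2a and 1 of Ddn, because peaks elsewhere were missing or doubled in a list. Log2 changes are relative to the typical region after TMM scaling, which moved the median region's change in control tags from -0.53 with total-tag scaling to -0.02, and in IP tags from -0.37 to 0.03. Control tags passed the adjusted threshold of 0.05 in 2.27% of all regions and in 0 of the 3. The log2 change from 2 to 6 weeks was 0.55 ± 0.31 (SE) at the central Camk2a region (edgeR adjusted p = 0.398), -0.01 ± 0.31 at the next one (adjusted p = 0.992) and 0.45 ± 0.31 at Ddn (adjusted p = 0.518). With total-tag scaling, these became -0.0028, -0.51 and -0.08, so the sign at the central Camk2a region and at Ddn depended on the scaling.

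IP tags passed in 1.09% of the 4577 regions and in none of the 3. Their log2 changes were 0.01 ± 0.56 and 0.22 ± 0.49 at the Camk2a regions and 0.54 ± 0.57 at Ddn, with edgeR adjusted p of 0.997, 0.860 and 0.676. For IP over control, edgeR called 0 of the 4577 regions, with 129 at an unadjusted p under 0.05, and DESeq2 also called 0, with 28. The change was -0.62 ± 0.37 at the central Camk2a region, 0.28 ± 0.39 at the next one and 0.02 ± 0.37 at Ddn. Their edgeR adjusted p was 0.999 each. Leaving out 1 library moved the central value between -1.08 (without 6-week replicate 2) and -0.11 (without 6-week replicate 1). In the same way the next region ranged from -0.35 to 0.98 and Ddn from -0.43 to 0.52, with the ends again set by leaving out either 6-week library. The 95% interval ran from -1.36 to 0.12 at the central Camk2a region, so its lower end was 0.389 of the 2-week ratio. Every region tested had passed the 3-fold minimum in each list, so a region that fell below it could not enter. The test is therefore limited for falls, and the 0 calls do not show that ratios held.

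Summing tags over the regions called in all 4 libraries gave 1 value per gene, for Camk2a, Shank1 and Ddn. These 3 windows were fitted together with loci elsewhere, 5711 units in all, and the Ddn value is that of its single shared region. Shank3 and Dlg4 had no such region and were not tested. Control tags passed in 2.54% of units and in none of the windows. Their log2 change was 0.36 ± 0.31 for Camk2a, 0.45 ± 0.31 for Ddn and 0.01 ± 0.31 for Shank1 (edgeR adjusted p of 0.647, 0.529 and 0.995). The upper ends of their 95% intervals were a rise of 1.96-fold, 2.08-fold and 1.53-fold relative to the typical unit. With total-tag scaling the 3 changes were -0.18, -0.08 and -0.51, again without a call.

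IP tags gave 0.07 ± 0.37 for Camk2a, 0.51 ± 0.39 for Ddn and -0.13 ± 0.41 for Shank1. The share of units called was 0%, with 881 at an unadjusted p under 0.05, while DESeq2 called 74 higher and 69 lower, none of them these windows. For IP over control, edgeR called 0% of units and so did DESeq2. Unadjusted p-values below 0.05 were found for 177 units by edgeR and for 27 by DESeq2. The summed regions had also passed the 3-fold minimum in each list, so falls below it could not be seen here either. The changes were -0.34 ± 0.28 for Camk2a, -0.02 ± 0.28 for Ddn and -0.19 ± 0.28 for Shank1. The Camk2a value rested on the 6-week replicates: without 6-week replicate 2 it was -0.90, and without 6-week replicate 1 it was 0.23. Each of these fits had a single 6-week library, so the spread at that age could not be measured. The alternatives for this value that kept all libraries gave adjusted p of 0.999 to 1. The sign at Ddn also turned on which 6-week library was left out, with 0.40 without 6-week replicate 2 and -0.43 without 6-week replicate 1.

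**Figure D4:**
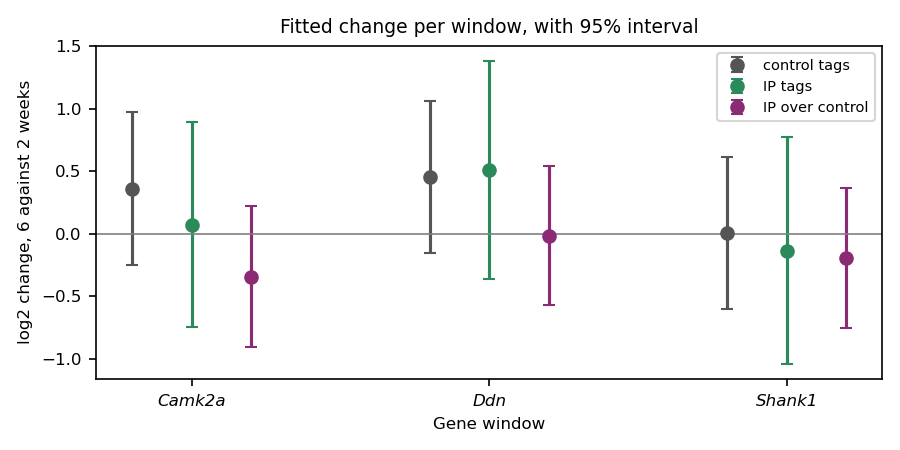
Fitted log2 change from 2 to 6 weeks in control tags, IP tags and IP over control for the 3 gene windows with a region called in all 4 libraries; points are edgeR estimates and bars their 95% intervals, relative to the typical unit. All 9 intervals include 0.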

How the data were processed

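Each of the 4 m6A-IP libraries (2 at 2 weeks, 2 at 6 weeks) has its own deposited peak list, so replicates were not pooled. Build mm9 and the tools Cufflinks 2.2.1, Bowtie2 2.2.3, HOMER (no version) and TopHat2 2.0.13 and 2.1.1 come from the submitters' processing notes, which give no roles. Which options and which control were used for calling is not given in the sources used here. Per the file headers, IP tags are unscaled counts and control tags scaled in 2-week replicate 1, and the reverse holds for the other lists. A further deposited column is a signal, IP tags scaled per library. Deposited score, fold ratio and p-value describe a peak, and the deposited focus ratio, a fraction, was not used. Whole tags were recovered from scaled columns: 100% of IP and control values came out whole within 0.2 tag, a control value of 0.5 tag standing for 0. Where peaks of a library overlapped in a region, region values are those of the strongest peak, since overlapping peaks may share tags; fits on summed tags take all.

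Tests were edgeR quasi-likelihood fits over all regions or units, with TMM, an offset for covered bp and Benjamini-Hochberg adjustment; IP over control was the interaction of fraction and age with a sample term. SE is the log2 change over the root of F. Named regions were the up to 4 strongest regions per window called in every list, those passing a test, and those called at one age only; others were named after their values were seen. The members, windows and tests were chosen with earlier results of these data known; the strongest-peak values and the minimums of 10 peaks per locus and 100 control tags per 10 M were chosen after the values were seen. The fits were also run on simulated tags, drawn with less spread between libraries than the control and IP fits found in the data. How well these fits recover changes in the real data is therefore not shown. Fits ran in R 4.3.3 with DESeq2 1.42.0, limma 3.58.1 and edgeR 4.0.16, and tables in Python 3.11.15 with scipy 1.17.1, pandas 2.3.3 and numpy 2.4.6.

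Other postsynaptic density genes and cell type markers were not analysed here, as no annotation of build mm9 was used.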

Additional observations from a re-analysis of the deposited data

How the results depend on the processing

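No member passed a threshold under any alternative, except Camk2a over its window without 6-week replicate 2 (IP over control, -0.90, given above). With peaks of at least 8-fold only, the 5 windows held 3 and 7 peaks at 2 weeks and 12 and 5 at 6 weeks, and no member in the fits. Only 21 member regions were left, with no 2-week-only and no 6-week-only region, against 4.8% and 2.06% of 37252 regions. Leaving out 1 library, so that a single call suffices for its age, gave 4 to 12 2-week-only and 0 to 14 6-week-only regions. The 14 were 28.6% of the member regions without either 6-week library, against 21.1% of all regions without replicate 1 and 20.6% without replicate 2; the 12 were 21.4%, without 2-week replicate 1, against 23.8%. Fits without a library of an age assume that the lone sample varies like the others.

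Counts over all regions of a fit are given as higher, then lower at 6 weeks. The fits differ in size, so the counts cannot be compared directly. Main fits held 4577 regions, those at 8-fold 551, with at least 1 peak in each list 10203, and with starts within 20 bp 1435. DESeq2 gave an adjusted p at 1560 regions for control tags. Of units, given below, main fits held 5711 and those at 8-fold 940. For control tags, 3198 units had at least 10 tags, and 7082 entered with all called peaks. Control tags (55 and 49) gave 21 and 370 with total tags, 22 and 14 with DESeq2, 0 and 0 at 8-fold, 22 and 19 with at least 1 peak in each list, 14 and 14 with starts within 20 bp, and 1 to 84 and 0 to 72 leaving out 1 library. IP tags (39 and 11) gave 0 and 0, 60 and 45, 1 and 0, 29 and 6, 17 and 5, and 3 to 402 and 1 to 325 in the same order. The replicate block gave 112 and 78 for IP tags and 56 and 49 for control tags. Same-numbered libraries correlated at 0.0526 (control) and 0.0262 (IP) in their deviations from the age means. Whether the numbers mark a shared batch is not given in the labels. IP over control gave 0 to 20 and 0 to 1 leaving out 1 library.

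For units, control tags (78 and 67) gave 14 and 474 with total tags, 24 and 19 with DESeq2, 8 and 4 with at least 10 tags, 6 and 8 at 8-fold, 3 and 2 with all called peaks, and 12 to 84 and 6 to 87 leaving out 1 library. IP tags (0 and 0) gave 0 and 3 with total tags, 74 and 69 with DESeq2, 37 and 36 with the replicate block, 9 and 5 at 8-fold, and 0 to 69 and 0 to 29 leaving out 1 library. IP over control gave 0 to 16 and 0 to 8 leaving out 1 library, and members called 0 to 1.

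Signs of member log2 changes turned as follows, the cause not being tested. With total tags, control tags were -0.0797 at the Ddn region and -0.0028 at the central Camk2a region, and -0.18, -0.0798 and -0.51 over the Camk2a, Ddn and Shank1 windows. IP tags were -0.50 and -0.22 at the Camk2a regions and -0.40 over its window, and IP over control 0.12 over that of Ddn. DESeq2 gave 0.0166 for control tags at the second Camk2a region. The replicate block gave -0.0566 for IP tags at the central Camk2a region and -0.0192 for control tags over the Shank1 window, and regions with at least 1 peak in each list gave -0.019 for the former. With at least 10 tags, control tags over Shank1 were -0.0616 and IP over control over Ddn 0.0482. With all called peaks, control tags were -1.50 (Camk2a) and -0.0546 (Shank1), IP tags -1.82 (Camk2a) and IP over control 0.10 (Shank1). The control and IP fits divide tags by covered bp, so these Camk2a values are not a change in tags alone. Its covered bp were 400 and 300 at 2 weeks, against 833 and 1100 at 6 weeks. IP tags per 10 M in its peaks were 11331 and 12180 at 2 weeks, against 7282.5 and 7410.8 at 6 weeks. Leaving out 1 library, the second Camk2a region ranged from -0.53 to 0.36 (control), -0.0291 to 0.44 (IP) and -0.35 to 0.98 (IP over control), and the central one from -0.57 to 0.42 (IP). The Ddn region ranged from -0.10 to 0.98 (IP) and -0.43 to 0.52 (IP over control). Over windows, Camk2a ranged from -0.41 to 0.43 (IP) and -0.90 to 0.23 (IP over control), Ddn from -0.10 to 0.93 and -0.43 to 0.40, and Shank1 from -0.33 to 0.27 (control), -0.82 to 0.33 and -0.47 to 0.0754.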
